A study of Mus musculus with 6 samples.

Results

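The genes described here are 51 mouse genes of DNA replication and of the step from G1 into S phase, taken by symbol from a fixed list of replication factors, nucleotide synthesis enzymes, E2F factors and cyclins E. All 51 were found among the 55394 genes of the deposited tables, each as 1 entry whose identifier and symbol match the mouse annotation. They were measured by SMART-seq, a low-input RNA sequencing method, in group 2 innate lymphoid cells (ILC2s) sorted from the lungs of newborn wild-type mice, 1000 cells a library. In the Abx group, pregnant C57BL/6 dams drank a cocktail of ampicillin, metronidazole, neomycin and vancomycin from gestation day 10 to 14. In the Con group they did not, and each group had 3 libraries. The pups were exposed through the dam and not dosed themselves, and the labels give neither their age nor whether the libraries of a group came from separate litters or animals, so the p-values measure only the spread between these libraries. The cells were gated as CD45+ Lin- CD90.2+ CD25+, and a bulk library of gated cells cannot tell fewer cells of a type from less RNA per cell.

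A cell copies its genome once in S phase. Origin recognition complex proteins mark start sites in G1, Cdc6 and Cdt1 load the MCM helicase on them, and Cdc45 and GINS then switch the helicase on, so that polymerases, the PCNA clamp and its RFC loader can copy the strands. E2F factors turn on most of these genes once cyclin-dependent kinases have inactivated the retinoblastoma protein, and inhibitors such as p21, the product of Cdkn1a, hold the kinases back.

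The sequences that E2F factors recognise are shown for 4 genes, because many genes of the list are known E2F targets. The RefSeq promoter windows (GRCm38.p6, 250 bases before to 50 after the start site) covered 42 of the 51 genes. Each was searched on both strands for the E2F words TTTCCCGC, TTTGGCGC, TTTCGCGC and TTTGCCGC, for CCAAT and for TTTGAA, the core of the cell cycle element CHR, and words of a kind may overlap one another. Of the 42 genes, 16 (38.1%) had an E2F word, against 2.6% of the 27025 genes with a window. CCAAT was present in 25 (59.5%, against 41.1%) and TTTGAA in 6 (14.3%, against 20.2%). By window, 16 of 49 (32.7%) held an E2F word, against 744 of 32851 (2.26%). The windows of these genes were richer in G and C, with a median of 61.3% against 52.7%. The stretches below lie upstream of the start site and are written 5′ to 3′ on the strand of the gene, with the E2F words in capitals. Mcm6 and Mcm7 are shown as helicase genes with higher values in Abx, Mcm5 as a subunit of the same helicase near 0 in most libraries, and Orc1 as an origin gene whose groups overlapped.
Mcm6, chr1:128359726-128359835, minus strand: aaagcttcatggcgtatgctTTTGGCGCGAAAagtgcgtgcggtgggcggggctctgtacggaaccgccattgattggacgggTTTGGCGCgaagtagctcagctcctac
Mcm7, chr5:138171990-138172099, minus strand: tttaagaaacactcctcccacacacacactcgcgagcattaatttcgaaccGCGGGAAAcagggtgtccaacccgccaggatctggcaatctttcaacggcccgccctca
Mcm5, chr8:75109307-75109416, plus strand: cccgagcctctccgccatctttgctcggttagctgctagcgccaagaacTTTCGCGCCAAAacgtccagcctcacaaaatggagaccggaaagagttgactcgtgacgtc
Orc1, chr4:108579344-108579453, plus strand: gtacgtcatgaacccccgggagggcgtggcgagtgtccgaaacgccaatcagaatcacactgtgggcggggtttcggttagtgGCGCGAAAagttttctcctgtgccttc

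Values are FPKM, fragments scaled to exon length and to the mapped total of the library, as the authors deposited them, and differences are Abx minus Con on the scale log2(FPKM + 1), with their standard error (SE). Total FPKM was 420941 to 489262 a library, and the number of reads is not given. Genes at 1 FPKM or more numbered 8574 to 9203 in the Con libraries and 7074 to 8193 in the Abx libraries. Of 14 ILC2 markers, 13 were measured above the filter, among them Gata3, Rora, Klrg1 and Id2, while Il1rl1, which encodes the IL-33 receptor ST2, lay at 0.06, 0.89 and 2.94 FPKM across Con and at 0.01 to 0.03 across Abx. Xist, the RNA that coats the silenced X, was at 3.78, 4.38 and 5.09 FPKM in Con and listed at 0 in Abx, and the Y-linked Eif2s3y lay at 0.03, 0.58 and 0.86 across Con and at 22.82, 11.85 and 24.37 in Abx, so that sex and treatment cannot be told apart in these libraries.

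No replication gene passed the test, while more of them had higher than lower fitted values in Abx. Of the 51, 47 reached 1 FPKM in 3 or more libraries and were tested, and the fitted difference was above 0 for 33 of them (70.2%), against 47% of the 8718 genes tested. The median difference was 0.71, against -0.06 over all genes tested. By limma, 0 of the 47 were called, which needed an adjusted p under 0.05 and a fold change over 2, where 0.0574% of all genes tested were called, and the smallest adjusted p of a member was 0.0911. At an unadjusted limma p under 0.05, 12 members were higher in Abx (25.5%, against 4.74% of all genes tested), and 1 was lower (2.13%, against 6.25%). All 3 Abx libraries lay above all 3 Con libraries for 13 members (27.7%, against 8.49%), and below them for 1 (2.13%, against 8.73%). Ccne2 and Mybl2 passed the filter through the Abx libraries alone. Without them 10 of 45 were higher at that p (22.2%), 1 was lower and the median was 0.70. All 3 Abx libraries then lay above all 3 Con libraries for 11 of the 45 (24.4%).

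The level of the whole list varied from library to library. Summed over the 51 genes, the Con libraries held 959, 1033 and 867 FPKM and the Abx libraries 1730, 1470 and 2119, so that the groups did not overlap. Abx library 3 had the highest sum. Of the members tested, 19 had their highest value in Abx library 3, 14 in Abx library 1 and 5 in Abx library 2, against 9 in the 3 Con libraries together. Abx library 1 also held the lowest value of 8 members. The same shares over all genes tested were not counted, so these counts may reflect the libraries as a whole. Libraries of a group also differed widely from each other for single genes, with a median SD of log2(FPKM + 1) of 0.64 in Con and 1.02 in Abx, against 0.55 and 0.89 over all genes tested. In Abx, 14 of the 47 genes spanned more than 10-fold or included a 0, and in Con 12 did. Only 29 of the 51 were at 1 FPKM or more in all 6 libraries, and 14 were listed at 0 in at least 1.

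**Figure D1:**
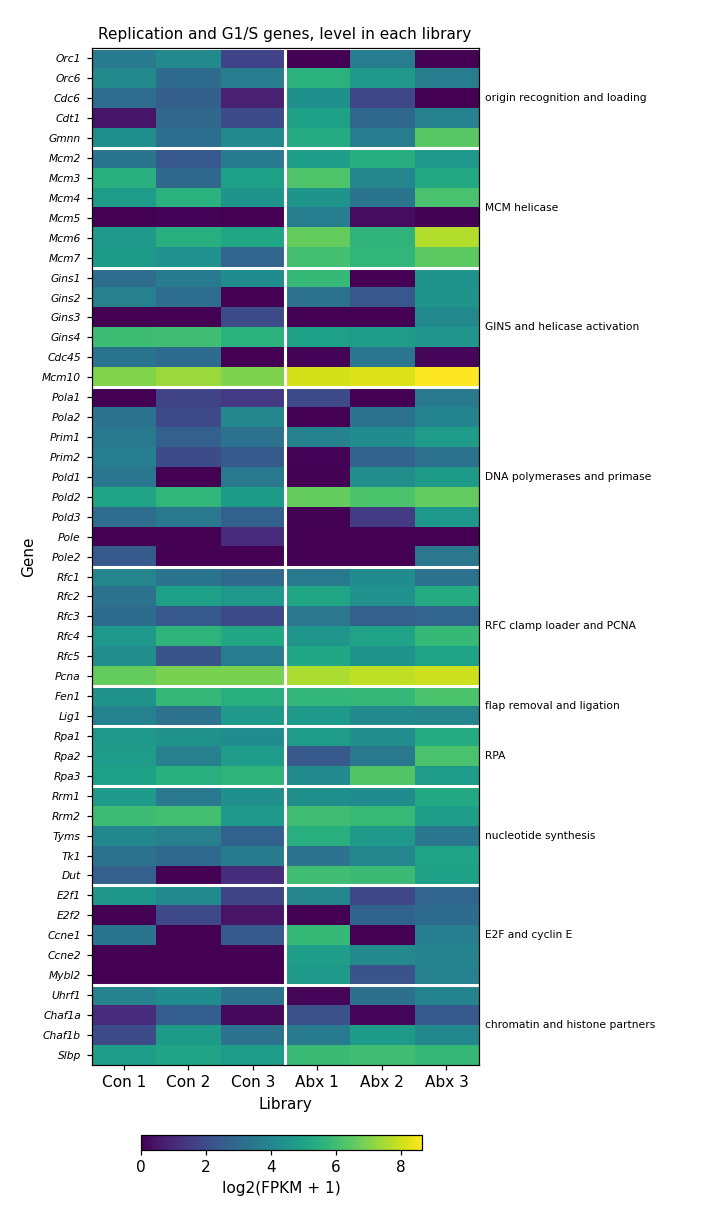
Level of the 51 genes, in log2(FPKM + 1), in the 3 Con and 3 Abx libraries (columns), with genes ordered by functional group (rows). Mcm10 and Pcna were the most abundant, and the dark cells show the genes listed at or near 0 in single libraries.

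In the E2F and cyclin E group, the genes of cyclin E2 and B-Myb were detected in the Abx libraries and were near 0 in Con. Both genes passed the filter through the Abx libraries alone, where they were high, so their p-values depend on that selection. Ccne2, which encodes a cyclin that activates Cdk2 for entry into S phase, had 0, 0 and 0.02 FPKM across Con and 28.18, 15.90 and 13.66 across Abx. The groups did not overlap, and each Abx library was far above every Con library. Its fitted difference of 4.26 (SE 0.68, limma adjusted p = 0.0911) rests on the pseudocount of 1, and no fold is given against libraries listed at 0. Of its exon bases, 17.4% overlap Ints8 on the opposite strand, and the kit does not mark strand, so reads there cannot be told apart. Ints8 was at 4.95 to 11.37 FPKM in Con and 5.13 to 16.82 in Abx. Mybl2, which encodes the transcription factor B-Myb, had 0, 0.01 and 0 FPKM across Con and 24.79, 3.61 and 12.81 across Abx. These groups were apart as well, with Abx library 2 the lowest of the 3. The fitted difference was 3.56 (SE 0.79, limma adjusted p = 0.111), and it too rests on the pseudocount. The pseudogene Gm3320, with 99.7% identity to Mybl2 over 742 bases, was listed at 0 in Con and at 0.13 to 0.67 FPKM in Abx.

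The other members of the E2F and cyclin E group varied within both groups. Ccne1, which encodes cyclin E1 and was the most abundant of the group, had 9.14, 0 and 4.20 FPKM across Con and 54.29, 0 and 12.08 across Abx. Library 2 of each group was listed at 0, and the groups overlapped. Its fitted difference was 1.26 (SE 1.56). E2f2, an activating E2F factor, differed by 1.17 (SE 0.95). E2f1, the best known activator of this class, differed by -0.61 (SE 0.95), with Con at 22.83, 16.10 and 2.44 FPKM and Abx at 14.25, 2.69 and 6.04. Neither E2f1 nor E2f2 passed an unadjusted p of 0.05, and the median of the 5 genes, with Ccne2 and Mybl2 among them, was 1.26.

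**Figure D2:**
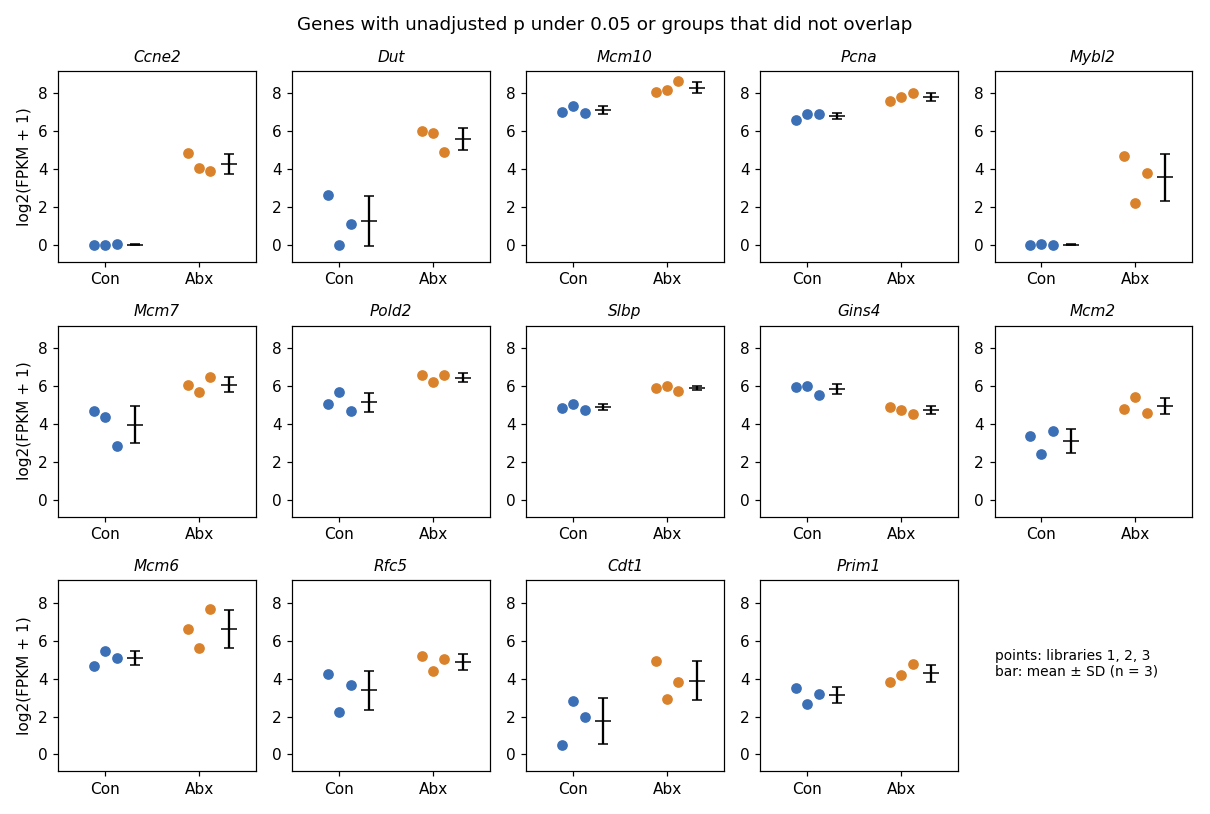
Level, in log2(FPKM + 1), of the 14 genes with an unadjusted p under 0.05 or with groups that did not overlap, in 3 Con (blue) and 3 Abx (orange) libraries, with the mean and SD beside the points. Gins4 is the only one of the 14 with all Abx points below all Con points.

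Among the genes that license origins, Cdt1, which brings the MCM helicase to the origin, had 0.39, 6.20 and 2.94 FPKM across Con and 30.20, 6.61 and 13.13 across Abx. The groups did not overlap, but Con library 2 and Abx library 2 lay close together. The difference was 2.14 (SE 0.90, limma adjusted p = 0.443), and it missed an unadjusted p of 0.05 when Con library 1 (1.49), Con library 3 (2.24), Abx library 1 (1.61) or Abx library 3 (2.18) was left out. Gmnn, which encodes geminin, the inhibitor that binds Cdt1, was the most abundant of the 5 genes, at 19.07, 7.79 and 15.80 FPKM in Con and 38.62, 11.47 and 84.54 in Abx. Abx library 2 lay within the Con range, and the difference was 1.28 (SE 0.74). Orc6, a subunit of the origin recognition complex, differed by 1.01 (SE 0.61), and Cdc6, which loads the helicase with Cdt1, by -0.10 (SE 1.23). Orc1, the largest subunit of that complex, had 11.19, 16.45 and 2.36 FPKM across Con and 0, 11.65 and 0 across Abx. Its difference was -1.94 (SE 1.21), and Abx library 2 lay inside the Con range.

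The MCM helicase is a ring of related subunits. Of its 5 tested genes, 3 were higher in Abx at an unadjusted p under 0.05 (60%, against 4.74% of all genes tested). Mcm7 had 24.99, 19.77 and 6.12 FPKM across Con and 66.48, 50.94 and 88.21 across Abx. Every Abx library was above every Con library, and the difference was 2.12 (SE 0.55, limma adjusted p = 0.152). The pseudogene Gm5487, with 97.7% identity to Mcm7 over 2157 bases, was at 0.55 FPKM or less. Mcm2 had 9.12, 4.27 and 11.27 FPKM across Con and 27.13, 41.46 and 23.24 across Abx. Its groups were apart too, by 1.82 (SE 0.53, limma adjusted p = 0.198). Mcm6, the most abundant of the ring, had 24.95, 43.11 and 33.72 FPKM across Con and 97.06, 48.45 and 202.27 across Abx. The groups did not overlap, although Abx library 2 was only just above Con library 2, and the difference was 1.54 (SE 0.52, limma adjusted p = 0.283). It missed an unadjusted p of 0.05 without Con library 1 (1.35) and without Abx library 3 (1.03).

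The remaining MCM subunits had values that overlapped between the groups. Mcm3 differed by 0.75 (SE 0.81). Mcm4 differed by -0.25 (SE 0.73), with 25.61, 45.64 and 21.11 FPKM in Con against 21.14, 9.04 and 71.83 in Abx. Abx library 3 was the highest of the 6 for Mcm4 and Abx library 2 the lowest. Mcm5 was under the filter, with 0.02, 0.07 and 0.02 FPKM across Con and 12.13, 0.23 and 0.03 across Abx (exact permutation test, p = 0.2). It reached 1 FPKM in Abx library 1 alone. Summed over the 6 genes, the Con libraries held 128, 119 and 102 FPKM and the Abx libraries 300, 165 and 422.

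Genes that activate the helicase had differences in both directions. Mcm10, which helps to start unwinding and was the most abundant of the 51 genes, had 127.09, 163.51 and 125.28 FPKM across Con and 272.48, 290.96 and 401.91 across Abx. The groups did not overlap, and the difference was 1.20 (SE 0.24, limma adjusted p = 0.0967). Its mean of 230 FPKM over the 6 libraries was above that of each MCM ring subunit, of which Mcm6 had the highest, 74.9. Gins4, a subunit of the GINS complex, was the one member lower in Abx at an unadjusted p under 0.05, at 61.91, 62.51 and 45.64 FPKM in Con and 29.30, 26.11 and 21.88 in Abx. Each Abx library was below each Con library, and the difference was -1.10 (SE 0.32, limma adjusted p = 0.198).

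The other genes of this group had overlapping values and wide errors. Gins1 ran from 0 in Abx library 2 to 54.99 FPKM in Abx library 1, and differed by -0.19 (SE 1.39). Gins2 differed by 1.05 (SE 1.14), and 67.3% of its exon bases overlap Gse1 on the opposite strand. Gins3 was under the filter, at 0, 0 and 3.04 FPKM in Con and 0, 0 and 16.12 in Abx (exact permutation test, p = 1). Only library 3 of each group reached 1 FPKM for Gins3. Cdc45, the helicase cofactor, differed by -0.92 (SE 1.24). The median over the 5 tested genes of this group was -0.19, and its sign depended on the settings.

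Of the polymerase and primase genes, Pold2, an accessory subunit of DNA polymerase delta, had 32.43, 50.51 and 25.09 FPKM across Con and 96.28, 72.23 and 93.59 across Abx. It was the most abundant of the 9, its groups did not overlap, and it differed by 1.30 (SE 0.34, limma adjusted p = 0.160). Prim1, the catalytic primase subunit that makes the RNA primer, had 10.20, 5.33 and 8.27 FPKM across Con and 13.36, 17.57 and 26.46 across Abx. Its groups did not overlap either, but at 1.16 (SE 0.54, limma adjusted p = 0.493) it missed an unadjusted p of 0.05.

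The rest of the polymerase genes were low and uneven. The catalytic subunit of polymerase delta, Pold1, differed by 0.71 (SE 1.50) and its partner Pold3 by -1.02 (SE 1.18). Pola1, the catalytic subunit of polymerase alpha and the one member on the X chromosome, differed by 0.74 (SE 0.98). Its partner Pola2 differed by -0.68 (SE 1.16), and Prim2, the large primase subunit, by -0.70 (SE 1.03). Abx library 1 was at 0.02 to 0.06 FPKM for Pola2, Prim2, Pold1 and Pold3, while Abx library 3 had 8.70 to 25.29 for the same genes. Both polymerase epsilon genes among the 51 were under the filter. Pole, its catalytic subunit, had 0, 0.01 and 1.12 FPKM across Con and 0.01, 0.01 and 0 across Abx (exact permutation test, p = 0.9). Pole2, at 4.43, 0.02 and 0 in Con and 0, 0 and 9.82 in Abx (exact permutation test, p = 1), was above 1 FPKM in 1 library of each group.

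Pcna, the sliding clamp that holds polymerases on DNA, had the smallest standard error of the 47 genes. It had 97.53, 119.60 and 118.66 FPKM across Con and 193.23, 227.83 and 256.85 across Abx. The groups were well apart, with a ratio of means of 2.02 and a difference of 1.004 (SE 0.22, limma adjusted p = 0.109). A processed pseudogene with 99.2% identity over 781 bases, Pcna-ps2, was listed at 1.46 to 2.07 FPKM in Con and 2.56 to 4.89 in Abx. Rfc5, a subunit of the clamp loader, had 18.18, 3.70 and 11.77 FPKM across Con and 35.71, 20.13 and 31.46 across Abx. Its groups did not overlap, although Con library 1 and Abx library 2 were close, and it differed by 1.48 (SE 0.62, limma adjusted p = 0.440). It missed an unadjusted p of 0.05 without Con library 2 (0.91), Con library 3 (1.63), Abx library 1 (1.32) or Abx library 3 (1.41). Of the exon bases of Rfc5, 10.7% overlap Wsb2 on the opposite strand, which was at 7.26 to 11.35 FPKM in Con and 0.12 to 15.30 in Abx. The other loader subunits differed by less, with Rfc2 at 0.68 (SE 0.55), Rfc3 at 0.51 (SE 0.69), Rfc1 at 0.23 (SE 0.59) and Rfc4 at -0.03 (SE 0.46).

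For lagging strand maturation and single-strand binding, no gene passed an unadjusted p of 0.05. Fen1, the nuclease that removes RNA primers' flaps, had 20.23, 53.22 and 42.12 FPKM across Con and 52.47, 53.37 and 71.86 across Abx, so that the groups overlapped. It differed by 0.70 (SE 0.41), and 78.8% of its exon bases overlap the antisense gene Gm10143, which was under 1 FPKM in all 6 libraries. Lig1, the ligase that seals Okazaki fragments, differed by 0.34 (SE 0.54). Rpa3, the smallest subunit of the single-strand binding protein and the most abundant of the RPA genes, had 29.41, 43.19 and 49.01 FPKM across Con and 16.27, 77.58 and 25.74 across Abx. Abx library 2 was the highest and Abx library 1 the lowest, and the difference was -0.30 (SE 0.58). Rpa1 differed by 0.37 (SE 0.43) and Rpa2 by -0.41 (SE 0.93).

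Among the genes of nucleotide synthesis, Dut had the largest fitted difference. Dut encodes dUTPase, which keeps uracil out of DNA and supplies the precursor of thymidine nucleotides, and had 5.30, 0 and 1.17 FPKM across Con and 62.67, 57.99 and 28.90 across Abx. The lowest Abx library was above the highest Con library, and the difference was 4.33 (SE 0.80, limma adjusted p = 0.0911). With 1 Con library listed at 0 this value depends on the pseudocount, and it was 5.74 at a pseudocount of 0.1 and 6.89 at 0.01, with limma adjusted p of 0.0925 to 0.365 over the alternatives. Rrm2, the regulated subunit of ribonucleotide reductase and the most abundant of the 5 genes, had 60.17, 64.85 and 24.42 FPKM across Con and 62.80, 57.78 and 27.40 across Abx. The groups overlapped in full, and the difference was 0.02, with a 95% interval of -1.14 to 1.18. Its partner Rrm1 differed by 0.43 (SE 0.52). Thymidylate synthase, Tyms, differed by 1.004 (SE 0.68), and thymidine kinase, Tk1, by 0.82 (SE 0.62). All 5 fitted differences were above 0 (100%, against 47% of all genes tested). Only that of Dut passed an unadjusted p of 0.05 (20%, against 4.74% higher at that p).

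Among the chromatin partners of the fork, Slbp, which binds the stem-loop of replication-dependent histone mRNAs, had 27.42, 32.15 and 25.68 FPKM across Con and 58.66, 63.57 and 53.37 across Abx. The groups did not overlap, each was tight, and the difference was 1.02 (SE 0.30, limma adjusted p = 0.197). The subunits of the histone chaperone CAF-1 differed by 0.77 (SE 0.78) for Chaf1b and 0.30 (SE 0.89) for Chaf1a, and 52.5% of the exon bases of Chaf1a overlap Ubxn6 on the opposite strand. Uhrf1, which brings the maintenance methyltransferase to new DNA, differed by -1.35 (SE 1.04), with Abx library 1 at 0.10 FPKM. For each of the 14 genes with an unadjusted p under 0.05 or with groups apart, the exact two-sided permutation test gave p = 0.1. That is the smallest that 3 libraries against 3 allow. All 14 had groups apart, and such groups always give this p, so the test adds nothing to that observation.

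**Figure D3:**
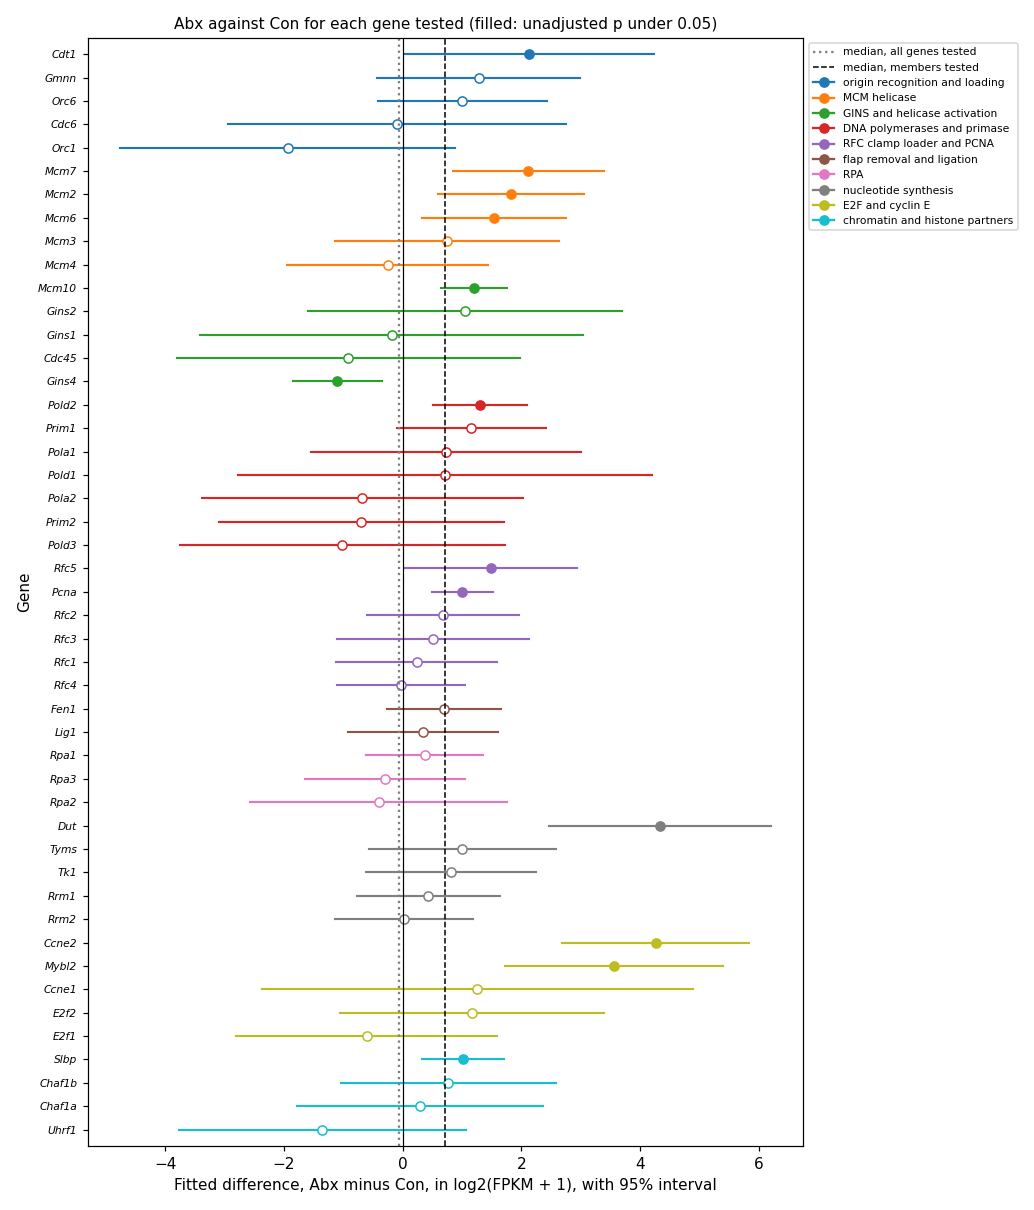
Fitted difference between Abx and Con, in log2(FPKM + 1), with its 95% interval, for the 47 genes tested, coloured by functional group. Filled points have an unadjusted p under 0.05, the dashed line is the median of the 47 genes (0.71) and the dotted line that of all genes tested (-0.06).

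By functional group, the median difference was 1.54 for the MCM helicase, 1.26 for E2F and cyclin E, 1.01 for origin recognition and loading, 0.82 for nucleotide synthesis and 0.71 for the polymerases and primase. It was 0.60 for RFC and PCNA, 0.53 for the chromatin partners, 0.52 for Fen1 and Lig1, -0.19 for GINS and helicase activation and -0.30 for RPA. Groups of 2 to 7 tested genes are too small to rank these medians beyond the spread of their members, which ran from -1.94 to 4.33. Over the alternatives the median changed sign in 3 of the 10 groups. It ran from -1.13 (pseudocount of 0.1) to 1.26 (without Abx library 2) for GINS and helicase activation, from -0.43 (without Con library 2) to 0.92 (without Con library 3) for the polymerases and primase, being -0.15 without Abx library 3, and from -0.39 (quantile normalization) to 0.37 (without Abx library 1) for RPA. The E2F and cyclin E median stayed above 0 but ran from 0.99 (without Abx library 3) to 2.84 (without Abx library 2). That median includes Ccne2 and Mybl2, which passed the filter through the Abx libraries alone, so its sign depends on that selection too. Beside them, E2f1 differed by -0.61 (SE 0.95), E2f2 by 1.17 (SE 0.95) and Ccne1 by 1.26 (SE 1.56). Of the 12 genes higher at an unadjusted p under 0.05, 11 had a promoter window, and 3 of these (27.3%) held an E2F word, namely Mcm6, Mcm7 and Cdt1, beside 10 of the 28 other tested genes with a window (35.7%).

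Other genes of the same pathways, listed apart from the 51, were counted in the same fit. Of 34 further replication genes 27 were tested, with a median of 0.45, and the difference was above 0 for 18 (66.7%, against 47% of all genes tested). At an unadjusted p under 0.05, 4 were higher (14.8%, against 4.74%), namely Pole3, Chtf18, Dctpp1 and Msh6, and 0 were lower (against 6.25%). Of 26 G1 cyclins, kinases, inhibitors and E2F partners 19 were tested with a median of -0.42, and 9 were above 0 (47.4%, against 47%). At that p 2 were higher (10.5%, against 4.74%), Cdk4 and Cdk6, and 1 was lower (5.26%, against 6.25%). Msh6 and Cdk6 passed the filter through the Abx libraries alone, where they were high. Of the exon bases of Cdk4, 19.7% overlap Tspan31 on the opposite strand, where reads cannot be told apart. Tspan31 was at 51.24 to 160.89 FPKM in Con and 67.46 to 88.24 in Abx. The lower gene was Cdkn1a, at 594.69, 581.63 and 677.34 FPKM in Con and 213.33, 258.31 and 320.84 in Abx. The highest Abx library was below the lowest Con library, and the difference was -1.24 (SE 0.21, limma adjusted p = 0.0911). Of 20 genes of G2 and mitosis 16 were tested, and 12 were above 0 (75%, against 47%) with a median of 0.46. At an unadjusted limma p under 0.05, 0 passed in either direction. Under the filter, Aurka had 0.02, 17.44 and 12.61 FPKM across Con and at most 0.03 across Abx. Bub1 had 4.18, 1.84 and 0.03 across Con and at most 0.09 across Abx. Foxm1 reached 1 FPKM in Con library 3 alone, and Bub1b in Abx libraries 2 and 3 alone. Mki67, which encodes the proliferation marker Ki-67, had 0.17, 7.28 and 3.03 FPKM across Con and 0.80, 2.55 and 0.05 across Abx, so that the groups overlapped.

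Markers of other cell types also differed between the groups. Of 12 T cell and thymocyte markers 7 were tested and 4 were higher in Abx at an unadjusted p under 0.05 (57.1%, against 4.74% of all genes tested), namely Cd3d, Cd8b1, Dntt and Ptcra, and the summed level of the 12 was 133 to 153 FPKM in Con and 422 to 502 in Abx. Cd3e and Cd3g were above 1 FPKM in all 6 libraries, and Rag1, which was under the filter, had 0.86, 0 and 0 FPKM across Con and 12.29, 0.99 and 7.80 across Abx. By contrast, Rag2 was listed at 0 in all 6 libraries, Cd4 at 0 in all but Abx library 2, and Cd8a was at 0 to 0.04 FPKM in Abx. The 11 B cell markers, 7 of them tested, summed to 259 to 329 FPKM in Con and 549 to 596 in Abx. Ighm made up most of the Abx sum, at 141.32, 109.49 and 159.26 FPKM across Con and 423.46, 357.66 and 428.74 across Abx. At an unadjusted p under 0.05, Ighm was higher and Cd22 lower (14.3% each, against 4.74% and 6.25%). The Abx libraries all lay above Con for Ighm and Ms4a1, and all below for Cd79b and Cd22 (28.6% each, against 8.49% and 8.73%). Of the 11, Igll1 was listed at 0 in all 6 libraries, and Ebf1 was at 0.09 FPKM or less. The 6 NK cell markers, of which only Gzma was tested, summed to 0 to 23.4 FPKM in Con and 215 to 224 in Abx. In Abx that sum was Gzma alone, at 223.60, 218.44 and 215.41 FPKM, against 13.78, 10.77 and 0 across Con. Klrk1 (1.67, 5.28 and 0 across Con) and Ncr1 (7.90, 0 and 0) were listed at 0 in every Abx library. Klrb1c and Prf1 were listed at 0 in all 6. Of 6 mast cell and basophil markers 4 were tested, and Mcpt8 and Kit were lower at an unadjusted p under 0.05 (50%, against 6.25%), by -2.12 (SE 0.70) and -2.21 (SE 0.78), with Kit passing the filter through Con alone. That list summed to 343 to 426 FPKM in Con and 185 to 540 in Abx. The 540 was in Abx library 3 and included Gata2, which had 0.07, 0 and 7.79 FPKM across Con and 0.39, 18.59 and 245.34 across Abx. Of 7 epithelial, endothelial and fibroblast markers 4 were tested, with 2 differences above 0 and 2 below. Only Sftpc, a surfactant gene of lung epithelium, passed an unadjusted p of 0.05 (25%, against 4.74% higher at that p), by 1.56 (SE 0.50). Pecam1 differed by 0.63 (SE 0.67) and Epcam by -1.85 (SE 1.39). Scgb1a1, the other lower gene, had 1109.16, 0.74 and 211.92 FPKM across Con and 3.39, 65.33 and 1.76 across Abx. The list summed to 31.5 to 1161 FPKM in Con and 68.3 to 148 in Abx, and Scgb1a1 made up most of the 1161, in Con library 1. The 10 myeloid markers, 3 of them tested, summed to 129 to 366 FPKM in Con and 176 to 381 in Abx. The 6 erythroid markers, 2 of them tested, summed to 2841 to 6338 FPKM in Con and 1332 to 3870 in Abx, most of it the globin gene Hbb-bs. Neither list held a marker that passed an unadjusted p of 0.05. The 14 ILC2 markers summed to 2862 to 3271 FPKM in Con and 2176 to 2755 in Abx, and 3 of the 13 tested were lower at that p (23.1%, against 6.25%), namely Areg by -1.40 (SE 0.27), Icos by -1.37 (SE 0.23) and Arg1 by -0.54 (SE 0.19). A Lin- gate is meant to remove mature T, B and NK cells, and the part of any of these cell types in the values of the replication genes was not tested.

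**Figure D4:**
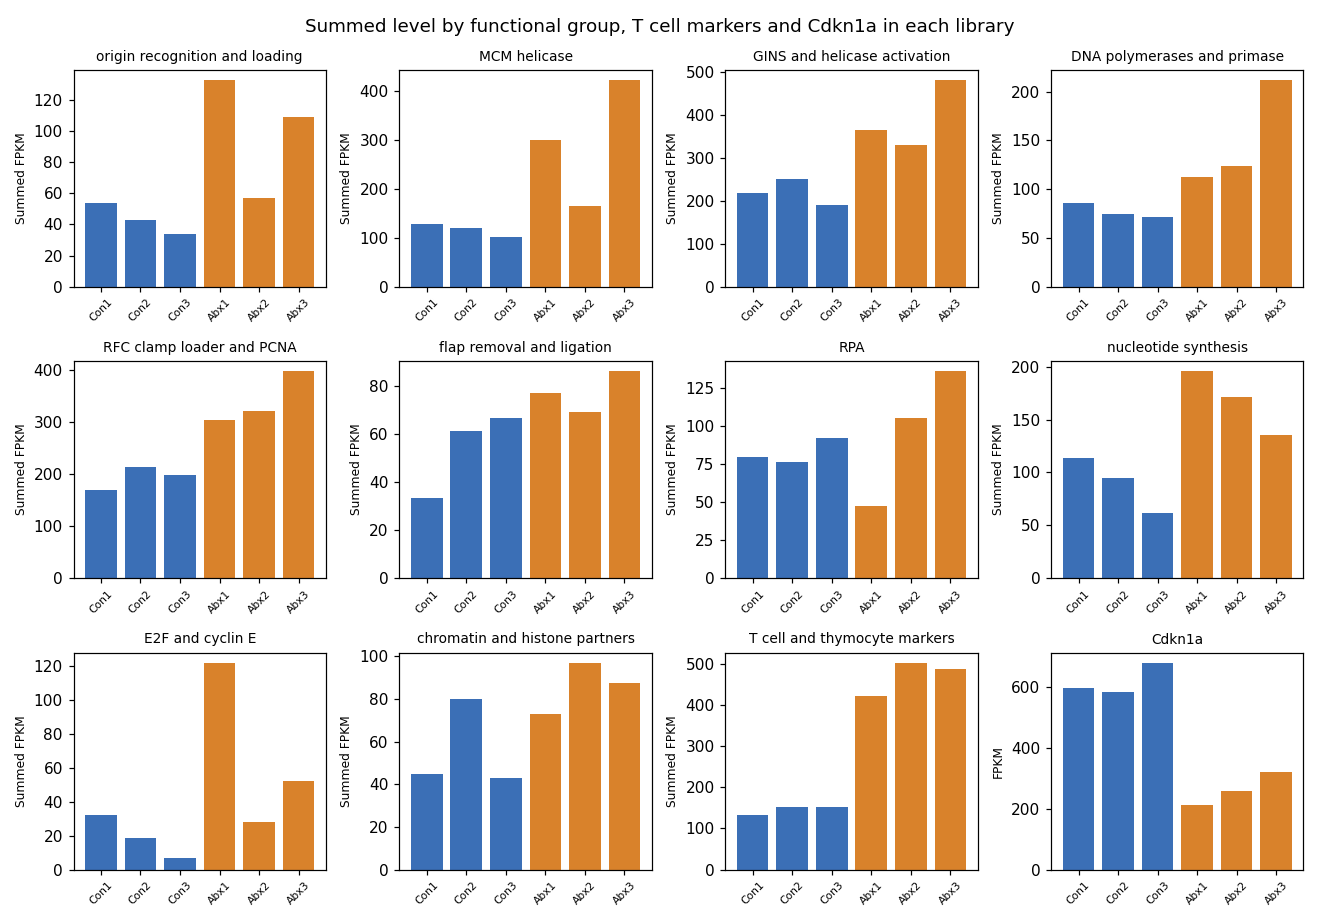
Summed FPKM of each functional group, of the 12 T cell and thymocyte markers, and FPKM of Cdkn1a, in each of the 3 Con (blue) and 3 Abx (orange) libraries, with every axis from 0. The MCM helicase sum was 102 to 128 in Con and 165 to 422 in Abx, while Cdkn1a was lower in all Abx libraries.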

How the data were processed

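SMART-seq libraries of 1000 sorted cells were made with the Smart-seq v4 kit. The authors trimmed reads with Cutadapt, mapped them with HISAT2 and computed FPKM per gene with StringTie, and they deposited 1 FPKM table per library. The methods name a human Ensembl annotation, but the identifiers are mouse; the submitters' processing notes name Bowtie 0.12.2. Read counts are not given, so the count model of the study was not repeated and no counting error is stated.

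Here log2(FPKM + 1) was fitted with limma 3.58.1 (R 4.3.3; lmFit, eBayes with a trend, two-sided, Benjamini-Hochberg) over the 8718 genes that reached 1 FPKM in 3 or more libraries. A call needed an adjusted p under 0.05 and a fold change over 2. Single members were also given an exact permutation test. The fit was also run on simulated data with normal noise and large set differences. Those settings differ from these libraries, so that run does not show how the fit behaves here. Python 3.11.15 (pandas 2.3.3, numpy 2.4.6) was used for the tables and counts. Exon overlaps came from GENCODE annotation of GRCm38, and near-identical copies from a blastn search at 95% identity over 200 bases.

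The members, lists and tests were chosen with earlier results of these data known. Values per library are given for members at an unadjusted p under 0.05, those whose groups do not overlap, the most abundant of each functional group, and those under the filter that reached 1 FPKM. A few other values were chosen after they were seen. Alternatives were other pseudocounts, scalings, filters and moderation, a replicate block and each library left out.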

Additional observations from a re-analysis of the deposited data

How the results depend on the processing

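Under the 14 alternatives, 0 members were called, and the 14 named members kept their direction in each. The groups of all 14 were apart, so their direction could not turn with a library left out or with another pseudocount, filter or moderation. The replicate block could not turn it either, and only the other scalings could have. The count higher in Abx at an unadjusted limma p under 0.05 was 10 to 14 with a library left out and 11 to 13 under the other settings, beside 12. The count lower was 1 to 2 with a library left out: it was 2 without Abx replicate 2, where Orc1 joined Gins4, and 2 without Abx replicate 3, where Pold3 did, and 1 elsewhere. The median over all genes tested ran from -0.17 (pseudocount of 0.01) to 0.03 (quantile normalization). The median difference of the members ran from 0.49 (without Abx replicate 3) to 0.88 (without Abx replicate 2). The median changed sign under an alternative in 3 of the 10 functional groups. Cdt1 missed an unadjusted p of 0.05 in 7 alternatives, Rfc5 in 6 and Mcm6 in 2. With the replicate number as a block, 11 members were higher and 1 was lower, and the smallest adjusted p of a member was 0.293; same-numbered libraries did not deviate together (correlations of -0.02, -0.03 and 0.01), so the numbers were not taken as pairs. Over all alternatives that smallest adjusted p was 0.0828 to 0.293. Depth is unknown, so a gene listed at 0 was not detected at a depth that cannot be stated.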
